A study of Mus musculus with 9 samples.

Results

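The genes described here carry out bile acid synthesis, conjugation and transport in the liver, together with the receptor pair that senses bile acids. They were chosen by name, from known roles, and all 10 were found among the 24341 genes of the deposited table. RNA was sequenced from the livers of 9 wild-type C57BL/6 mice collected 48 hours after treatment. In 3 mice (mice 2, 5, and 9) the treatment was anti-CD40, the agonist antibody FGK45, which activates the CD40 receptor on antigen-presenting cells, and in 6 control mice (mice 3, 4, 7, 8, 11, and 12) the labels name PBS. No other agent or allele is named for either group, and the labels give no age. The study's methods state that some anti-CD40–treated mice were excluded when the antibody failed to lower blood B cells.

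Hepatocytes make bile acids from cholesterol. In the classical pathway CYP7A1 adds the first hydroxyl group and is rate limiting, CYP8B1 steers the product toward cholic acid, and in the alternative pathway CYP27A1 begins by oxidizing the side chain. AKR1D1 reduces the steroid ring, SLC27A5 links the acid to coenzyme A, and BAAT then joins it to taurine or glycine. The transporter NTCP, encoded by Slc10a1, takes conjugated bile acids back up from portal blood, and the bile salt export pump, encoded by Abcb11, secretes them into bile. The nuclear receptor FXR, encoded by Nr1h4, binds bile acids, activates Abcb11, and induces the repressor SHP, encoded by Nr0b2, which limits Cyp7a1 and Cyp8b1.

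Promoter sequences from RefSeq (assembly GRCm38.p6, the same build as mm10) were matched to 7 of the 10 genes by symbol. 3 are shown, each covering the 250 bases before the transcription start, because the data bear on them in different ways. Slc10a1 fell most of the 10 genes, Abcb11 fell and is a textbook FXR target, and Nr0b2, the other FXR target, was not called. Capitals mark matches, on either strand, to the nuclear receptor hexamer AGGTCA, to TCAAGG, the core of the site bound by the receptor LRH-1, or to an inverted repeat of the kind bound by FXR, in which AGGNCA is followed, after a single base, by TGNCCT. The Abcb11 promoter lies at chr2:69342617-69342866 on the minus strand, that of Slc10a1 at chr12:80968080-80968329 on the minus strand, and that of Nr0b2 at chr4:133553126-133553375 on the plus strand, its RefSeq start being 14 bases from the start in the deposited table.
Abcb11: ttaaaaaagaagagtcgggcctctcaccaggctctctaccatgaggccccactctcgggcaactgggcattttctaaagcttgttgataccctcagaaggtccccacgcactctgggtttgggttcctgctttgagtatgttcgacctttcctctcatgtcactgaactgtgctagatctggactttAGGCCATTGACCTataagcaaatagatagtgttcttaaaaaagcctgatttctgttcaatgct
Slc10a1: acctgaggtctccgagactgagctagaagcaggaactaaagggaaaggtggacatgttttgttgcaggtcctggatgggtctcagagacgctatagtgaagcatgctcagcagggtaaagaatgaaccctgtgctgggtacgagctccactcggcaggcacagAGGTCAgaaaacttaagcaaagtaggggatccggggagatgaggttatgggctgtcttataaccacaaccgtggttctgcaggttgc
Nr0b2: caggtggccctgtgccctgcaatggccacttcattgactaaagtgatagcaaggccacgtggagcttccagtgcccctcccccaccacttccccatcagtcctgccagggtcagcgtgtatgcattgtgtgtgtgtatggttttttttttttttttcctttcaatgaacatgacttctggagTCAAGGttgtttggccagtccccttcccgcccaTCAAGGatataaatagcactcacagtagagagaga
In the Abcb11 promoter the inverted repeat ran from 63 to 51 bases before the start and contained the hexamer match. The inverted repeat was found in 28 of 32536 mouse promoters of the same length (0.0861%). Since the motifs were chosen after the sequences were seen, this share is not a test of the Abcb11 match. The hexamer was found in 14.04% of them and TCAAGG in 12.4%, so single matches to either are common. Slc10a1 held 1 hexamer in the promoter shown, whose start is that of the deposited table. Another RefSeq promoter of Slc10a1, with its start 626 bases away, held none of the 3 motifs. Nr0b2 held TCAAGG at 2 places, from 68 to 63 and from 35 to 30 bases before the start. Akr1d1 held the hexamer at 2 places, of which the nearer to the start overlapped a TCAAGG match, and Nr1h4 held it at 1 place, in a promoter 26964 bases from the 5′ end of the gene in the deposited table. Cyp8b1 and Cyp27a1 held none of the 3 in these windows. The matches are descriptions of the letters only.

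The deposited values are FPKM, read fragments scaled by library size and transcript length, from libraries that read each transcript at its 3′ end. Levels of different genes are therefore not compared here, since reads from 3′ ends do not grow with transcript length. The length cancels when 1 gene is compared between mice. Read totals are not in the table, so absolute depth is unknown, but the steps between low values gave relative depths of 0.991 to 1.13 after anti-CD40 and 0.870 to 1.06 in controls. Pancreatic acinar genes stood apart in anti-CD40 mouse 5, with a summed FPKM of 430.6 over 7 genes against 9.12 or less in every other mouse. The serum amyloid genes Saa1, Saa2, and Saa3 held 25.4% to 25.9% of all FPKM in treated mice and at most 0.380% in controls. Nothing in the labels shows whether the mice were processed in batches.

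Anti-CD40 was followed by lower expression of most of the bile acid machinery, whereas the genes of FXR and SHP were not called. Of the 10 genes, 7 fell (Slc10a1, Cyp7a1, Cyp27a1, Slc27a5, Akr1d1, Abcb11, and Baat), none rose, and 3 were not called (Cyp8b1, Nr0b2, and Nr1h4). A call means an adjusted p under 0.05 in a limma model fitted across the 13807 genes whose mean FPKM reached 0.1, a filter that all 10 genes passed. In the same test 45.1% of all genes tested were called, 21.7% lower and 23.5% higher. The median log2 fold change of the 10 genes was -1.65, and that of all genes tested was 0.0056. In the same 7 genes every anti-CD40 mouse was below every control mouse, a separation found in 19.6% of all genes tested, with 22.7% separated upward and 42.4% either way. In bulk liver, fewer hepatocytes and less RNA per hepatocyte cannot be told apart.

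**Figure D1:**
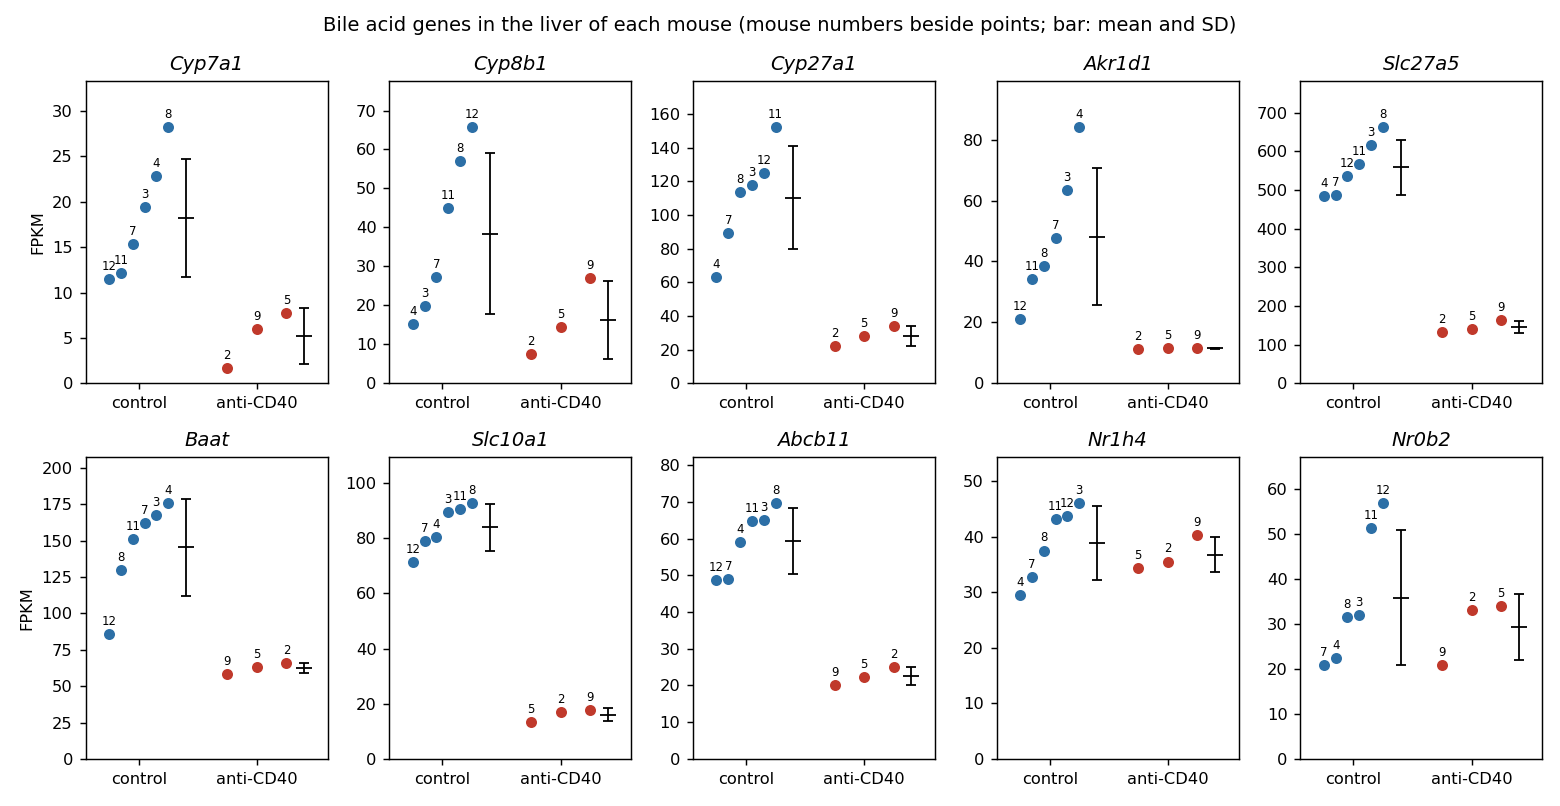
FPKM (linear axes that start at 0) of the 10 bile acid genes in each of the 6 control mice and 3 anti-CD40 mice, with points ordered by value within a group, mouse numbers beside them, and bars for the mean and SD. The anti-CD40 mice lie below all control mice in 7 panels, and the groups overlap in Cyp8b1, Nr1h4, and Nr0b2.

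Among the synthesis enzymes, Cyp7a1 (chromosome 4 of mm10, from 6265612 to 6275631, minus strand) had an FPKM of 1.73, 7.72, and 6.02 in anti-CD40 mice 2, 5, and 9. In the control mice it ran from 11.5 to 28.2, with a median of 17.4. The lowest value, in mouse 2, was well apart from those of the other anti-CD40 mice, and the groups did not overlap. The log2 fold change was -1.97 (SE 0.44, limma adjusted p = 0.00431), and without mouse 2 it was -1.33, still called (limma adjusted p = 0.0128). Cyp27a1 (chromosome 1, from 74713574 to 74737890, plus strand) was at 21.9, 27.9, and 34.0 in mice 2, 5, and 9, against 63.4 to 152 in the control mice (median 116). Limma gave a log2 fold change of -1.95 (SE 0.25, limma adjusted p = 1.44e-04). These enzymes each open a pathway of bile acid synthesis, and their mean FPKM after anti-CD40 was 28.3% of control for Cyp7a1 and 25.4% for Cyp27a1.

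Cyp8b1 (chromosome 9, from 121914356 to 121916305, minus strand) was less clear. FPKM values were 7.39, 14.3, and 27.0 in anti-CD40 mice 2, 5, and 9 and 15.2 to 65.7 in the control mice (median 36.1). Mouse 9 lay inside the control range, and mouse 5 was just below the lowest control, mouse 4. No call was made for its log2 fold change of -1.23 (SE 0.52, limma adjusted p = 0.0766; exact permutation p = 0.0952). Its 95% confidence interval, from -2.38 to -0.08, holds both a change near 0 and one larger than that of Cyp7a1. The outcome depended on single mice, as the gene was called lower without anti-CD40 mouse 9 (log2 change -1.69, limma adjusted p = 0.0380) or without control mouse 4 (-1.46, limma adjusted p = 0.0285), whereas without anti-CD40 mouse 2 the change was -0.76 (limma adjusted p = 0.319).

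Akr1d1 (chromosome 6, from 37530173 to 37568815, plus strand), which encodes the ring-reducing enzyme, was nearly level across the anti-CD40 mice at 11.3, 11.5, and 11.6. In the control mice it spread from 21.1 in mouse 12 to 84.1 in mouse 4. The annotation places a pseudogene, Gm7463, within it on the same strand. The coefficient of variation was 1.09% in the anti-CD40 mice and 46.9% in the control mice. Limma gave a log2 fold change of -1.92 (SE 0.36, limma adjusted p = 0.00138).

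Both conjugation enzymes fell. Slc27a5 (chromosome 7, from 12988346 to 12998192, minus strand) had an FPKM of 133, 139, and 164 in anti-CD40 mice 2, 5, and 9 and of 483 to 663 in the control mice (median 551). The groups lay far apart relative to their spread, with a log2 fold change of -1.94 (SE 0.13, limma adjusted p = 2.61e-06). Baat (chromosome 4, from 49489418 to 49506558, minus strand) had 66.0, 62.9, and 58.5 in mice 2, 5, and 9 and 86.0 to 176 in the control mice (median 157). Control mouse 12, the lowest, was closer to the anti-CD40 mice than to the next control mouse. The log2 fold change of Baat was -1.18 (SE 0.21, limma adjusted p = 0.00101).

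Of the 10 genes, Slc10a1, the uptake transporter of the sinusoidal membrane (chromosome 12, from 80953185 to 80968079, minus strand), had the largest fall. FPKM values were 17.1, 13.5, and 17.6 in anti-CD40 mice 2, 5, and 9 and 71.2 to 92.8 in the control mice (median 84.8). It was also the least variable of the 10 genes among control mice, with a coefficient of variation of 9.98%. The log2 fold change of -2.38 (SE 0.13, limma adjusted p = 6.40e-07) corresponds to a level 5.20-fold lower. Once libraries were rescaled without the 3 serum amyloid genes, the log2 fold change was -2.02. Abcb11, the export pump of the canalicular membrane (chromosome 2, from 69238282 to 69342616, minus strand), was at 25.04, 22.3, and 20.2 in mice 2, 5, and 9, below the control range of 48.6 to 69.8 (median 62.0). On the log2 scale the change was -1.39 (SE 0.14, limma adjusted p = 3.32e-05). The annotation places 2 genes, Gm13613 and Gm13614, on the opposite strand within Abcb11, and whether strand was used in counting is not stated.

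Neither the receptor gene nor that of its induced repressor was called. Nr1h4 (chromosome 10, from 89454234 to 89533622, minus strand) had an FPKM of 35.5, 34.4, and 40.3 in anti-CD40 mice 2, 5, and 9, all inside the control range of 29.5 to 46.1 (median 40.4). Its log2 fold change was -0.06 (SE 0.16, limma adjusted p = 0.765), with a 95% confidence interval from -0.41 to 0.28. Nr0b2 (chromosome 4, from 133553390 to 133556536, plus strand) had 33.1, 33.9, and 20.8 in mice 2, 5, and 9 against 20.8 to 56.9 in the control mice (median 31.8). On the log2 scale the change was -0.22 (SE 0.33, limma adjusted p = 0.608), and the interval was wider, from -0.95 to 0.51. Mouse 9 was just below the lowest control mouse, and mice 2 and 5 were near the control median. The whole interval of Nr1h4 lay above those of the 7 called genes, whereas that of Nr0b2 overlapped the interval of Baat, from -1.64 to -0.72. The sign of both small changes depended on scaling, as they were 0.30 and 0.14, still not called, once libraries were rescaled without the 3 serum amyloid genes.

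Control mice differed among themselves in several of these genes. Control mice 11 and 12 had the highest Nr0b2 (51.3 and 56.9) and the lowest Cyp7a1 (12.2 and 11.5). Control mouse 4 had the highest Akr1d1 and Baat but the lowest Cyp8b1, Cyp27a1, and Nr1h4. The spread between the highest and lowest control mouse was 4.31-fold in Cyp8b1, 3.99-fold in Akr1d1, and 2.73-fold in Nr0b2, but 1.37-fold in Slc27a5 and 1.30-fold in Slc10a1. Cyp7a1 is known for its daily rhythm, and clock genes varied in the same mice. The clock activator Arntl ran from 0.736 in control mouse 12 to 11.3 in control mouse 4, and from 4.53 to 5.69 in the anti-CD40 mice. Of 12 clock genes tested, 4 were called lower after anti-CD40, none higher, and 8 were not called. Among all genes tested, 21.7% were called lower and 23.5% higher. The 4 included Nr1d1, at 1.63 ± 0.897 (SD, n = 3) against 7.93 ± 2.91 (SD, n = 6). The part of the clock in the differences between groups was not tested.

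Whether pairs of these genes changed unequally was examined with the log2 ratio of both genes in each mouse, which does not depend on how a library was scaled. There were 5 pairs, and each was compared by a 2-sided exact permutation test. The 84 possible splits into 3 and 6 mice allow no p below 0.0238. The ratio of Abcb11 to Slc10a1 had a mean of 0.49 ± 0.27 in the 3 treated mice and of -0.50 ± 0.10 (SD) in the 6 controls, a difference of 0.99 (exact permutation p = 0.0238, 0.119 adjusted over the 5 pairs). It was higher in 3 of 3 anti-CD40 mice than in any control mouse. The ratio of Baat to Slc27a5 was 0.76 higher on average (exact permutation p = 0.0476, adjusted 0.119), with overlap between the groups. Neither passed after adjustment, but a single pair at the smallest possible p adjusts to 0.119 over 5 pairs and could not have passed alone. The ratio of Cyp8b1 to Cyp7a1, which bears on how much cholic acid is made, differed by 0.74 (exact permutation p = 0.357, adjusted 0.446). In control mice alone this ratio ran from -0.58 to 2.50, a range wider than that difference. How large a difference these mice could reveal was not computed. The ratios of Cyp7b1 to Cyp7a1 (difference 0.74, adjusted exact permutation p = 0.446) and of Nr0b2 to Nr1h4 (-0.16, adjusted exact permutation p = 0.643) also did not pass.

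Another 3 pairs were chosen after the values were seen, to set fallen genes against a regulator. The ratio of Abcb11 to Nr1h4 differed by -1.32 on the log2 scale after anti-CD40, at -0.71 ± 0.26 (SD, n = 3) against 0.62 ± 0.30 (SD, n = 6). That of Slc10a1 to Nr1h4 was at -1.19 ± 0.15 (SD, n = 3) against 1.12 ± 0.27 (SD, n = 6). The groups did not overlap in either pair. Since these pairs join genes already seen to fall to a regulator already seen near its control level, they restate the values above and are given without a test. The ratio of Cyp7a1 to Nr0b2 differed by -1.75 on average, but the groups overlapped, as control mice 11 and 12 were at -2.07 and -2.30.

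**Figure D2:**
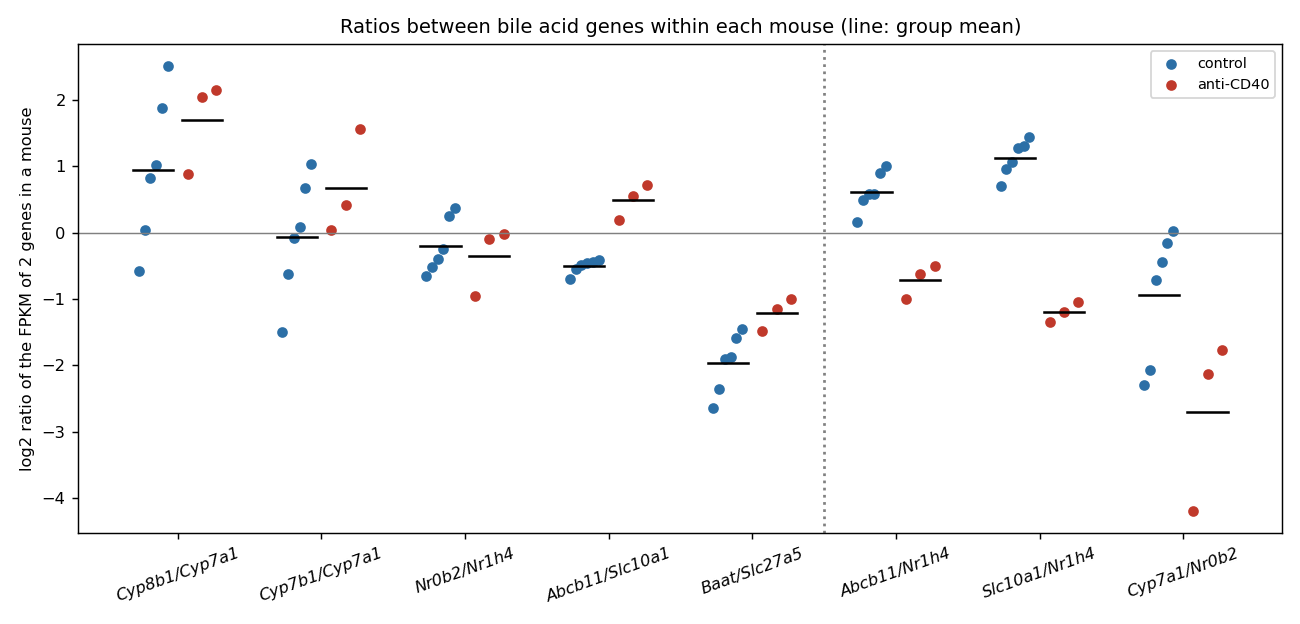
Log2 ratio of the FPKM of 2 genes within each of the 6 control mice and 3 anti-CD40 mice for 8 pairs, with a line at each group mean; the 3 pairs right of the dotted line were chosen after the values were seen. The groups are apart in Abcb11/Slc10a1, Abcb11/Nr1h4, and Slc10a1/Nr1h4 and overlap in the other 5.

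The genes were also set against hepatocyte markers. Of 16 hepatocyte genes, 13 were called lower, 2 higher, and 1 was not called, with a median log2 fold change of -1.10. Among them, the apolipoprotein gene Apoa2 was called lower (log2 fold change -2.18, shared table position with Nr1i3) and the transferrin gene Trf was called higher (0.70). Summed over the list, FPKM was 27551 to 31664 after anti-CD40 and 42696 to 76060 in controls. When each mouse was scaled to the mean log2 value of these markers, 3 of the 10 bile acid genes were called lower and 2 higher, where 3.20% and 76.5% of all genes tested were called lower and higher. Under this scaling the median change over all genes was 1.09 (log2). Slc10a1 (-1.23, adjusted p = 5.34e-05 from limma), Cyp27a1 (-0.79, adjusted p = 0.00465), and Slc27a5 (-0.78, adjusted p = 1.92e-04) thus fell beyond the hepatocyte markers. Cyp7a1 (-0.84, adjusted p = 0.0807) and Akr1d1 (-0.77, adjusted p = 0.0973) were not called on this scale, nor were Abcb11 (-0.24), Cyp8b1 (-0.08), and Baat (-0.03). Nr1h4 and Nr0b2 were called higher relative to the markers, at 1.09 and 0.93, which is close to the median of all genes on that scale.

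**Figure D3:**
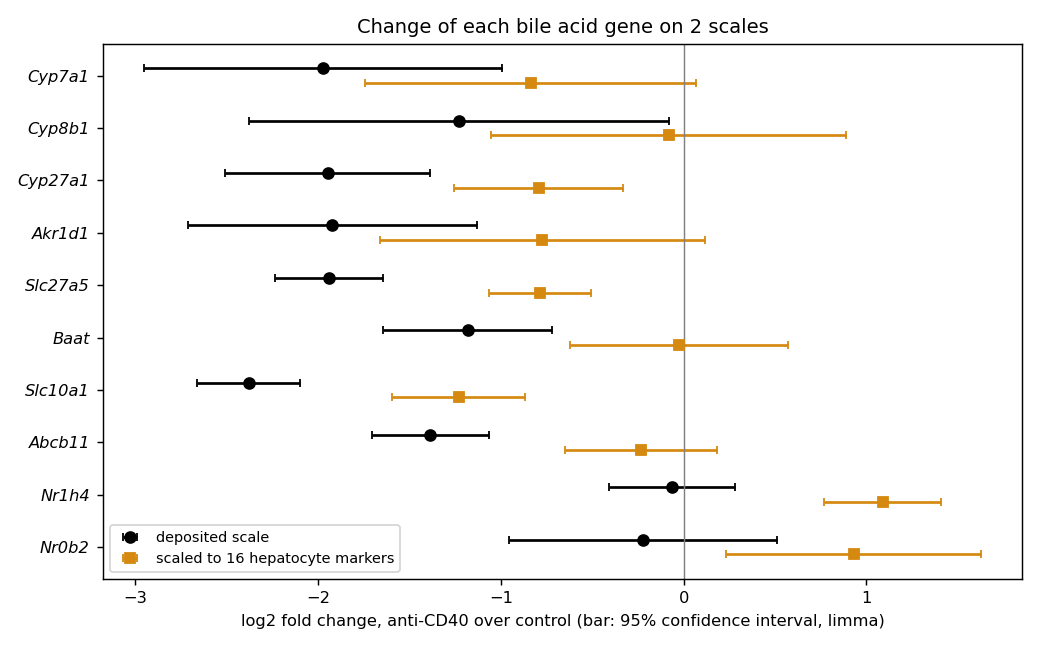
Log2 fold change (anti-CD40 over control) of the 10 bile acid genes with 95% confidence intervals from limma, on the deposited scale (circles) and after scaling to 16 hepatocyte markers (squares). On the second scale Slc10a1, Cyp27a1, and Slc27a5 remain below 0, and Nr1h4 and Nr0b2 lie near 1.

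The markers of other cells moved as follows. Of the tested genes in each list, 8 of 8 neutrophil, 7 of 7 lymphocyte, and 6 of 8 monocyte and macrophage genes were called higher. All 5 Kupffer cell genes were called lower. Among all genes tested, 23.5% were called higher and 21.7% lower. Of the 11 neutrophil genes listed, Ly6g was not in the deposited table, and Elane and Mpo did not reach the mean FPKM required. Ltf, Ngp, Cxcr2, Cd8a, and Cd79a had control means under 0.1 and were tested only because treated mice were high. Summed neutrophil FPKM was 4214 to 5201 in treated mice against 18.4 to 156 in controls. For monocytes and macrophages the sums were 316 to 433 and 45.8 to 79.9, for lymphocytes 26.6 to 30.4 and 2.36 to 5.36, and for Kupffer cells 37.2 to 48.1 and 268 to 425. The endothelial list was mixed, with 2 of 6 genes higher, 2 lower, and sums of 77.0 to 87.4 against 80.8 to 107. Cholangiocytes line the bile ducts and express several bile acid transporters. Of the 7 genes tested of their list, 3 were called higher and none lower, and the sum was 69.1 to 99.3 against 9.14 to 18.0. None of the 7 acinar genes was called (limma adjusted p from 0.0621 to 0.443). No gene of any of these lists was at the floor in all 9 mice. Their part in the falls of the bile acid genes was not tested. Without anti-CD40 mouse 5 and control mouse 4, which had the highest neutrophil, monocyte and macrophage, and lymphocyte sums of the control mice, the same 7 bile acid genes were called lower.

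Another 55 genes of bile acid metabolism, from lists compiled by role, were examined beside the 10. Of the 52 that were tested, 28 were called lower and 4 higher, with a median log2 fold change of -0.67. Among all genes tested, 21.7% were called lower and 23.5% higher. By role, 14 of 18 genes of synthesis and modification (median -1.20), 6 of 15 transport genes (median -0.28), and 8 of 19 regulators (median -0.54) were called lower, and the difference between roles was not tested. Scaled to the hepatocyte markers, 4 synthesis genes were called lower and 6 higher, and 4 transport genes lower and 10 higher. On that scale 2 regulators were called lower and 11 higher. The shares over all genes tested there were 3.20% lower and 76.5% higher. Fgf15, Gpbar1, and Slc51a did not reach the mean FPKM required. Fgf15, the gut hormone gene of the FXR axis, was at the floor of 0.01 in all 9 mice.

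Within synthesis and modification, Sult2a8, which encodes a bile acid sulfotransferase, fell most. It had an FPKM of 1.65, 2.41, and 1.80 in anti-CD40 mice 2, 5, and 9 and of 54.9 to 132 in the control mice (median 92.2). The log2 fold change of -5.46 (SE 0.26, limma adjusted p = 3.04e-07) compares with -2.38 for Slc10a1. Cyp3a11, which hydroxylates bile acids and drugs, fell from 1062 ± 430 (SD, n = 6) to 211 ± 57.8 (SD, n = 3). Cyp39a1, a hydroxylase of oxysterols, fell from 11.0 ± 3.88 (SD, n = 6) to 2.62 ± 0.635 (SD, n = 3). Cyp2c70, which makes the muricholic acids of rodents, fell from 333 ± 42.7 (SD, n = 6) to 99.6 ± 8.36 (SD, n = 3). Cyp7b1, of the alternative pathway, fell less, with a log2 fold change of -1.23 (SE 0.30, limma adjusted p = 0.00660), and was not called when scaled to the hepatocyte markers (-0.09). The peroxisomal oxidase Acox2 had a log2 fold change of 0.03 and was not called. The exception in direction was Ch25h, which encodes cholesterol 25-hydroxylase, an enzyme also made by macrophages. It rose to 3.07, 3.47, and 1.39 in mice 2, 5, and 9 from 0.01 to 0.338 in the control mice (log2 fold change 3.65, limma adjusted p = 7.75e-05). Its control values lie near the pseudocount, and the fold change ran from 1.65 to 4.68 over the alternatives.

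Among the transporters, the sodium-independent uptake carriers Slco1a1 and Slco1a4 fell most. Slco1a1 was at 0.288, 0.484, and 0.588 in anti-CD40 mice 2, 5, and 9, whereas the control mice spread from 2.96 to 32.8 (median 11.4). On the log2 scale the change was -4.21 (SE 0.72, limma adjusted p = 8.53e-04). Slco1a4 changed by -2.73 on the log2 scale, from 36.8 ± 7.05 (SD, n = 6) to 5.51 ± 1.36 (SD, n = 3). Abcg5 and Abcg8, which together form the sterol pump of the canalicular membrane, fell by 1.98 and 2.37 on the log2 scale. They share 1 position in the table on opposite strands, so their values are uncertain. The canalicular pump genes Abcc2 (log2 fold change -0.28), Abcb4 (-0.09), and Abcg2 (-0.16) were not called and overlapped between groups. Slc51b, a subunit of the basolateral exporter, was called higher, at 8.19, 3.42, and 3.30 in mice 2, 5, and 9 and 0.395 to 3.10 in the control mice. That call (log2 fold change 1.80, limma adjusted p = 0.0347) was lost when mouse 2 (limma adjusted p = 0.157), 5 (0.0578), or 9 (0.0553) was left out, as well as control mouse 7 (0.0618) or 11 (0.0621). Its position is shared with Rasl12, and its partner subunit Slc51a was at the floor in 8 of the 9 mice.

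**Figure D4:**
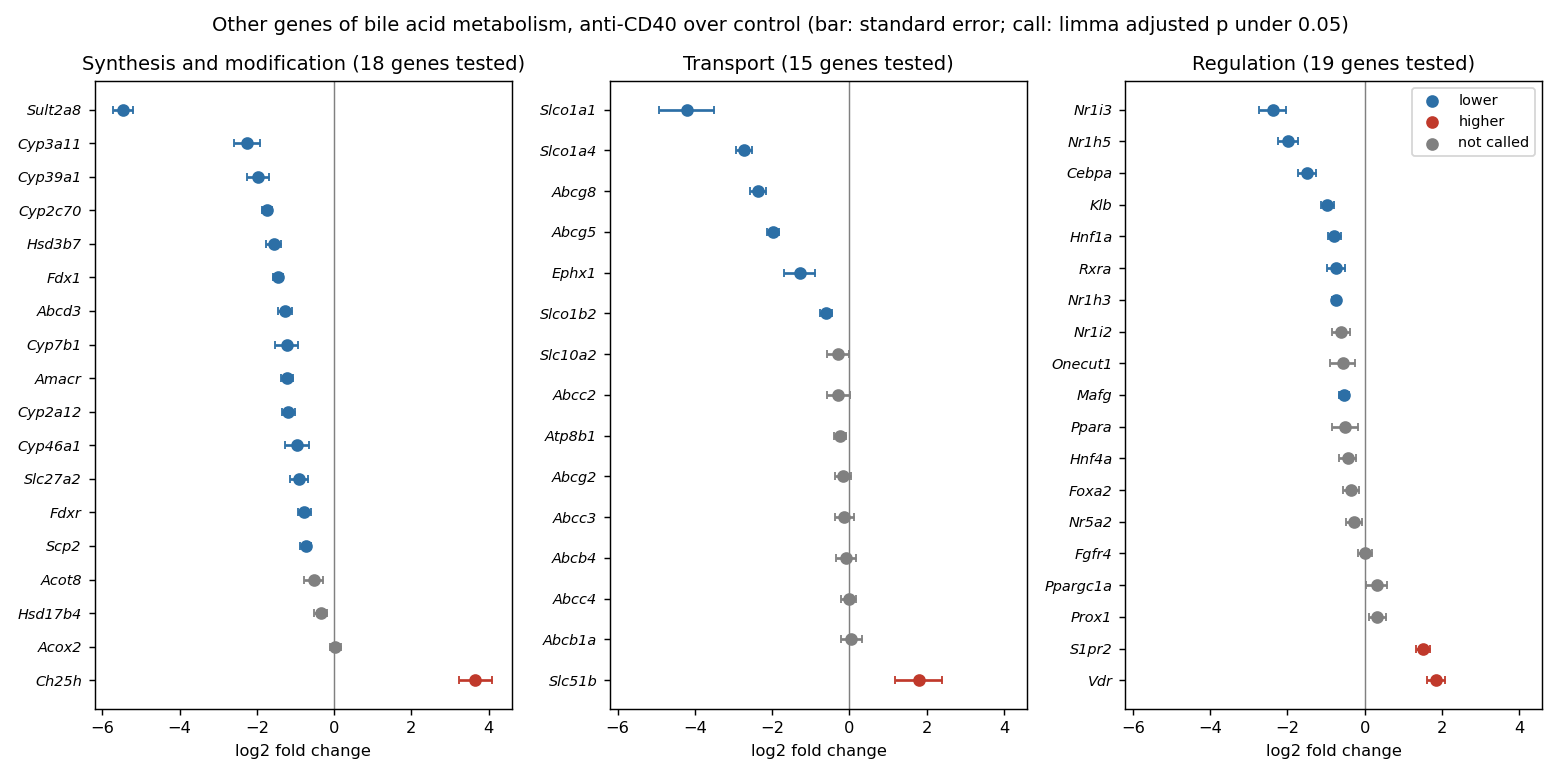
Log2 fold change (anti-CD40 over control) with its standard error for 52 other genes of bile acid metabolism, by role, colored by the limma call at an adjusted p under 0.05. Most genes of synthesis lie left of 0, with Sult2a8 at -5.46, whereas 8 of 15 transport genes and 9 of 19 regulators were not called.

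Among the regulators, Nr1i3, which encodes the xenobiotic and bile acid sensor CAR, fell from 29.3 ± 7.59 (SD, n = 6) to 6.16 ± 4.13 (SD, n = 3). It shares its table position with Apoa2, which fell by a similar amount. Cebpa, a hepatocyte transcription factor, fell from 113 ± 37.0 (SD, n = 6) to 38.8 ± 2.78 (SD, n = 3). Klb, the coreceptor through which FGF15 represses Cyp7a1, fell from 3.02 ± 0.521 (SD, n = 6) to 1.48 ± 0.142 (SD, n = 3), whereas its partner receptor Fgfr4 had a log2 fold change of 0.00 and was not called. Scaled to the hepatocyte markers, Nr1i3 was still called lower (-1.24, limma adjusted p = 0.00480), whereas neither Klb (0.13) nor Cebpa (-0.33) was called. The factors that drive Cyp7a1 and Cyp8b1 directly, Hnf4a (log2 fold change -0.44) and Nr5a2 (-0.27, encoding LRH-1), were not called, and Rxra, the partner of FXR, was called lower (-0.74). S1pr2, a receptor that responds to conjugated bile acids and is also present on leukocytes and endothelium, rose in all 3 anti-CD40 mice (14.3, 11.3, and 9.39) above the control range of 2.90 to 4.69. Its log2 fold change was 1.51 (SE 0.18, limma adjusted p = 8.96e-05). Vdr, another bile acid–sensing nuclear receptor, was at 0.3003 to 0.445 in the anti-CD40 mice and at most 0.0706 in the control mice, 2 of which were at the floor, and its fold change depends on the pseudocount.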

How the data were processed

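The authors isolated RNA from liver (RNeasy), prepared QuantSeq 3′ FWD libraries, and sequenced them on a NextSeq 500. They aligned reads to mm10 with STAR and ran Cufflinks and CuffDiff in BaseSpace. The deposited FPKM, 1 value per gene and mouse, carry a floor of 0.01 and FAIL where an estimate failed. The annotation and the filter applied to the table are not given in the sources used here. Each library came from 1 mouse, and mice were grouped by their labels.

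The 15 genes with a failed estimate were left out (24326 remained). Values entered the test unscaled as log2(FPKM + 0.1), a scale on which changes of low genes are understated, for the 13807 genes with a mean of at least 0.1. These were tested with limma 3.58.1 in R 4.3.3 (eBayes with trend, 2-sided, Benjamini-Hochberg over all genes, threshold 0.05). Single genes and ratios were tested with exact permutation tests (scipy 1.17.1). CuffDiff was not rerun, since it needs reads. The limma step was tested on simulated data. Table starts are given 1-based. Promoters are the 250 bases before RefSeq starts, and motifs, chosen after the sequences were seen, were searched on both strands.

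The 10 genes and all lists were chosen, from general knowledge, with earlier results of these data known. Named beside them were the 4 largest changes per list with a mean FPKM of at least 1, the largest in the less frequent direction, genes used in a pair, and the 2 hepatocyte markers with the highest mean FPKM, a rule for selection only. Other genes named for their role (Acox2, Abcc2, Abcb4, Abcg2, Fgfr4, Hnf4a, Nr5a2, Rxra, Arntl, Nr1d1, Fgf15, Gpbar1, and Slc51a) were chosen after their values were seen.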

Additional observations from a re-analysis of the deposited data

Results flagged for a closer look

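In the 6 control mice, the distance of the highest or lowest mouse from its neighbor was set against the whole range for 34 measures (the 10 bile acid genes, 16 other genes of the pathway, and 8 ratios). Only Abcg8 stood apart, with an FPKM of 38.9 in control mouse 12, where that distance was above the 95% limit for 6 values. Chance gives about 1.70 such cases among 34.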

How the results depend on the processing

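No paired analysis was possible because the groups share no mouse numbers. All 7 falls were called under 22 of 23 alternatives. The exception was scaling to hepatocyte markers, with 3 of the 10 genes lower and 2 higher, and 10 and 27 of the other pathway genes. On that scale 3.20% of all genes tested were called lower and 76.5% higher. There Nr1h4 was at 1.09, Nr0b2 at 0.93, and Klb at 0.13, each reversed. The direction of Nr1h4 and Nr0b2 is not fixed otherwise: Nr1h4 was at 0.19 with quantile normalization, and leaving out Saa1, Saa2, and Saa3 with rescaling, which raised the median of all genes by 0.35, gave 0.30 and 0.14 without a call. The same rescaling made each of the 7 falls smaller, from -2.02 for Slc10a1 to -0.82 for Baat. It left 22 pathway genes called lower and 6 higher. A mean FPKM of at least 1 left 2 pathway genes called higher, since low genes were dropped, and a 2-fold requirement left 18 lower. Leaving out each mouse gave 7 to 8 of the 10 genes lower, none higher, 25 to 30 pathway genes lower, and 3 to 4 higher. Nr0b2 ranged from -0.36 to 0.0072. Ratio differences ranged from 0.44 to 1.14 for Cyp8b1 to Cyp7a1, 0.30 to 1.06 for Cyp7b1 to Cyp7a1, -0.33 to 0.14 for Nr0b2 to Nr1h4, 0.88 to 1.14 for Abcb11 to Slc10a1, 0.62 to 0.89 for Baat to Slc27a5, -1.43 to -1.18 for Abcb11 to Nr1h4, -2.40 to -2.24 for Slc10a1 to Nr1h4, and -2.21 to -1.003 for Cyp7a1 to Nr0b2. With anti-CD40 mouse 5 and control mouse 4 both left out, chosen after seeing the data, Abcb11 to Nr1h4 was -1.29 and Slc10a1 to Nr1h4 -2.18. Other alternatives were pseudocounts of 1 and 0.01, no filter, median of ratios scaling, eBayes without trend or robust, array weights, and an adjusted p under 0.01. Read depth is unknown, which limits low genes such as Vdr and Ch25h.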
